A study of Mus musculus with 15 samples.

Results

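A set of 8 metabolic regulator genes were examined for DNA methylation in mouse sperm: Ppara, Pparg and Ppard, Nr1h3, Hnf4a, Ppargc1a and Ppargc1b, and Srebf1. Their CpGs were taken as every listed position inside the RefSeq span of a gene on mm10 or within 2 kb of either end, which gave 139 of the 204492 positions measured. The 15 libraries come from sperm of G1 C57BL/6 males, 8 labelled with the protein restricted diet and 7 with the control diet. Methylation was read by reduced representation bisulfite sequencing, in which MspI cuts DNA at CCGG, short fragments are sequenced after bisulfite treatment, and cytosines that stay unconverted are scored as methylated. The labels give neither ages nor parentage, and whether the labelled diet was fed to the sampled mouse or to a parent is not stated. They do not say that the libraries come from separate mice, so p-values measure the spread between libraries, which may be technical.

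PPAR alpha, PPAR gamma, PPAR delta and LXR alpha (encoded by Ppara, Pparg, Ppard and Nr1h3) are nuclear receptors that bind fatty acid or oxysterol ligands and act on DNA as heterodimers with RXR. HNF4 alpha (Hnf4a) is a nuclear receptor that binds DNA as a homodimer, PGC-1 alpha and PGC-1 beta (Ppargc1a, Ppargc1b) are coactivators recruited by such receptors, and SREBP-1 (Srebf1) is a membrane-held transcription factor of lipid synthesis whose gene is a target of LXR. In liver, muscle and fat these proteins set fatty acid oxidation, adipogenesis, mitochondrial content and lipid synthesis. In mature sperm, transcription is largely silent, most of the genome is methylated outside CpG islands, and promoters in CpG islands are mostly unmethylated.

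The series as a whole had summed read counts over the listed positions of 6650912 to 10712016 in protein restricted libraries and 7846118 to 11841657 in control libraries. The 139 CpGs carried 3243 to 5396 of these counts per protein restricted library and 3719 to 5451 per control library. No 2 of the 105 library pairs compared had identical counts. Every listed position had at least 11 methylated reads in every library, so a position with little methylation at ordinary depth would not be in the list, and the levels below describe listed positions only. The same floor bounds the value of a single library. With 11 reads at a listed position a library could only read 100%, and with few more reads it could not read low. Levels, SDs and counts at 100% below are subject to this floor. At imprinted regions methylated in sperm, upstream of Meg3 and Rasgrf1, the percentage summed over 9 CpGs lay between 92.7% and 96.9% in the 15 libraries. No listed CpG was found at the annotated starts of Peg3, Snrpn, Mest, Kcnq1ot1 and Plagl1, whose promoters are methylated on the maternal copy. Given how positions came to be listed, this absence does not tell the level at those starts. H19 and Peg10 had no annotated start to check.

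No listed CpG lay in a promoter window of these genes. RefSeq promoter windows of the same build, 250 bases before an annotated start and 50 bases from it on, were at hand for 7 of the 8 genes and numbered 13; none was given for Ppargc1b. The 250 bases before a start are shown here for 4 windows to display what the assay could have cut, with each CCGG, the MspI site, in capitals and CpG-rich windows beside CpG-poor ones. Each is written along the strand of its gene and comes from RefSeq on GRCm38.p6.
Ppara, chr15:85735526-85735775, + strand: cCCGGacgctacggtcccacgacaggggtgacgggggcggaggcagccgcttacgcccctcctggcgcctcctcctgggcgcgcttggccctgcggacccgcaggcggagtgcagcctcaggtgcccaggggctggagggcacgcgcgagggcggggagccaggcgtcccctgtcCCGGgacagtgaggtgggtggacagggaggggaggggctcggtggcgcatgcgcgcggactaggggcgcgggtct
Pparg, first of 3 windows, chr6:115360894-115361143, + strand: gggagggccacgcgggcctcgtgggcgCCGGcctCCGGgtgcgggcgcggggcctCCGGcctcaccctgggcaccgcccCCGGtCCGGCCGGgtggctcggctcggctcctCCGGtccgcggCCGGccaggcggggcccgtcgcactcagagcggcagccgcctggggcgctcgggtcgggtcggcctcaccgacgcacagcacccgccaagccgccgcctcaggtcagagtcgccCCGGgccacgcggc
Nr1h3, chr2:91195036-91195285, - strand: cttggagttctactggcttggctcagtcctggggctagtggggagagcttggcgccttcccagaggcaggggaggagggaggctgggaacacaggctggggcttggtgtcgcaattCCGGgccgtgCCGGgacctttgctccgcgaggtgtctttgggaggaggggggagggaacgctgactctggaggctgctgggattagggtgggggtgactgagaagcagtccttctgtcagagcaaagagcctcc
Ppargc1a, chr5:51567726-51567975, - strand: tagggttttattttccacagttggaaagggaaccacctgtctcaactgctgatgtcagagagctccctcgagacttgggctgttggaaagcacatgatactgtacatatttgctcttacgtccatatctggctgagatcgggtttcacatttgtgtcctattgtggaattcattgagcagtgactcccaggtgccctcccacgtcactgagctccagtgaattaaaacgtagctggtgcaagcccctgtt

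In these 250 bases Ppara held 27 CpGs and 2 CCGG sites, Pparg 38 CpGs and 9 CCGG sites, Nr1h3 8 CpGs and 2 CCGG sites, and Ppargc1a 5 CpGs and no CCGG. Of the 13 full windows, 10 held at least 1 CCGG and 8 at least 2, while 52.8% and 32.6% of all 32851 windows did; CCGG reads the same on both strands and was searched as those 4 letters. The lack of listed CpGs was shared with nearly all promoters: 0.980% of all windows held a listed CpG, 1.46% of those with a CCGG, and 0.0230% of the 8701 windows with at least 20 CpGs. Of the 13 windows of these genes, 4 had at least 20 CpGs. Whether unlisted promoter CpGs were unmethylated, uncovered or filtered cannot be told apart from these files.

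The listed CpGs closest to a start still lay outside the promoters. The nearest was the Nr1h3 CpG, 1187 bases downstream of an annotated start, followed by CpGs 2772 bases downstream in Ppard, 3108 in Hnf4a and 4620 in Srebf1. In Pparg and Ppara the nearest were 28754 and 36481 bases downstream. Of the 58 CpGs of Ppargc1a, 55 lay upstream of the only start given for it, by 42785 bases or more. All 58 lay inside its RefSeq span of 661.605 kb, which on the - strand begins at 52115853. No start was given at that end, so upstream here refers to the given start and not to the gene span. Those 55 had a median of CpG means of 98.4% and the 3 downstream ones 99.3%. The gene table gives spans without exons, so whether a CpG was exonic, intronic or in a UTR was not analysed here.

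**Figure D1:**
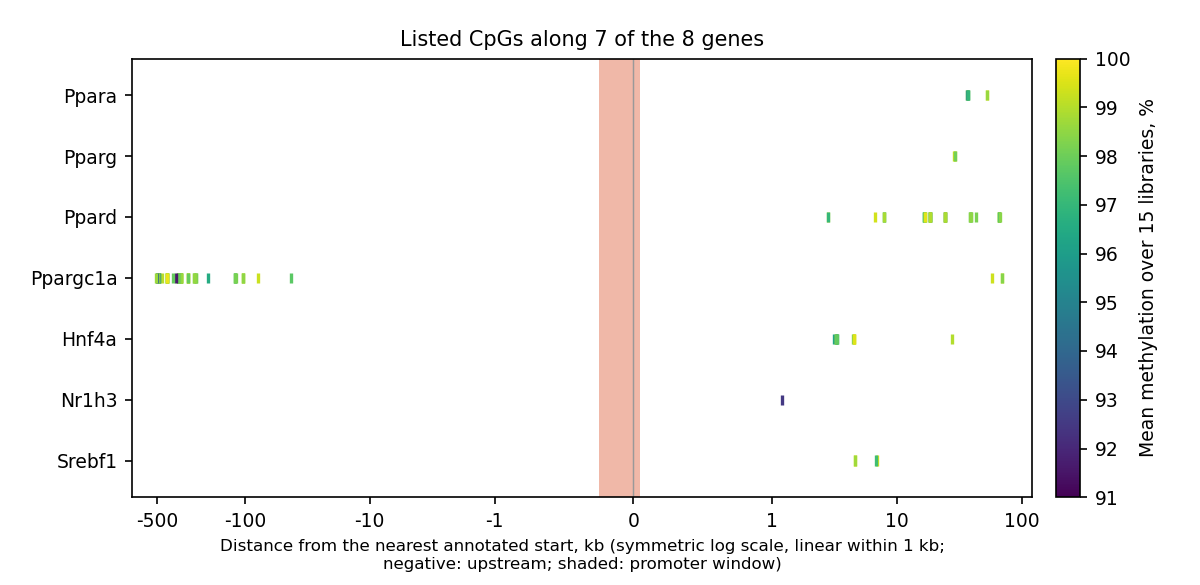
Position of the listed CpGs of 7 genes relative to the nearest annotated start, in kb along the gene's strand on a symmetric log scale that is linear within 1 kb; each tick is 1 CpG, coloured by its mean methylation over 15 libraries, and ticks of 1 fragment overlap. No tick falls in the shaded promoter window, and the Nr1h3 CpG, at 92.5%, is the nearest at 1187 bases. The Ppargc1a ticks upstream of its given start lie inside its RefSeq span.

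All 139 CpGs were highly methylated, in a list whose values the floor on methylated reads bounds from below. Each had a mean of at least 90% over the 15 libraries, as had 89.7% of all listed positions, and 133 had a mean of at least 95%. The median of the CpG means was 98.4% in these genes and 98.2% over all positions. Of the 139, 6 had a mean under 95%: 3 in Ppargc1a, 2 in Ppard and the Nr1h3 CpG. The lowest of all was a CpG of Ppargc1a at 51924509 on chromosome 5, with 85.7%, 91.1% and 100% as lowest, median and highest protein restricted library and 83.3%, 92.3% and 95.5% as the control ones. At the other end, a CpG of Ppargc1a at 51894130 read 100% in every library, as did 854 of all positions.

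Coverage and number of CpGs differed widely between the genes. Ppargc1a had 58 listed CpGs in 27 groups separated by more than 300 bp, Ppard 37 in 10, Ppargc1b 17 in 5, Hnf4a 12 in 3, Ppara 7 in 2, Srebf1 4 in 2, Pparg 3 in 1 group, and Nr1h3 a single CpG. CpGs within a group may share reads, so they are not independent measurements. Scaled to length, Ppard was the richest with 5.09 listed CpGs per 10 kb and Pparg the poorest with 0.225. Mean coverage per CpG ran from 20.4 reads in Hnf4a to 67.1 at the Nr1h3 CpG, with a median of 27.0 reads over the 139 CpGs and 32.0 over all positions. Of the 139 CpGs, 22 were also inside or within 2 kb of another gene of the table, among them the 4 flank CpGs of Ppargc1b, which also lie within 2 kb of Pde6a.

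Between diets, none of the 8 genes differed beyond the spread of its libraries. Each gene's level is given as methylated over total counts summed over its listed CpGs in each library. A quasi-binomial test fitted to all 20804 genes with a listed CpG called 0 of them at an adjusted p under 0.05 (0%), and 3.06% had an unadjusted p under 0.05, 1.61% higher and 1.45% lower in protein restricted sperm, against 0 of these 8 genes. With limma, 0 genes were called on percentages or on logit values, and 981 and 965 had an unadjusted p under 0.05. The adjusted p of each of the 8 genes was 1 in the quasi-binomial test. The groups of libraries overlapped at every one of the 8 genes; they did not overlap at 4 genes that were higher (0.0192%) and 1 that was lower (0.00481%) in the whole table. The median difference over the 8 genes was -0.0409 points, protein restricted minus control, and -0.00577 points over all genes.

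**Figure D2:**
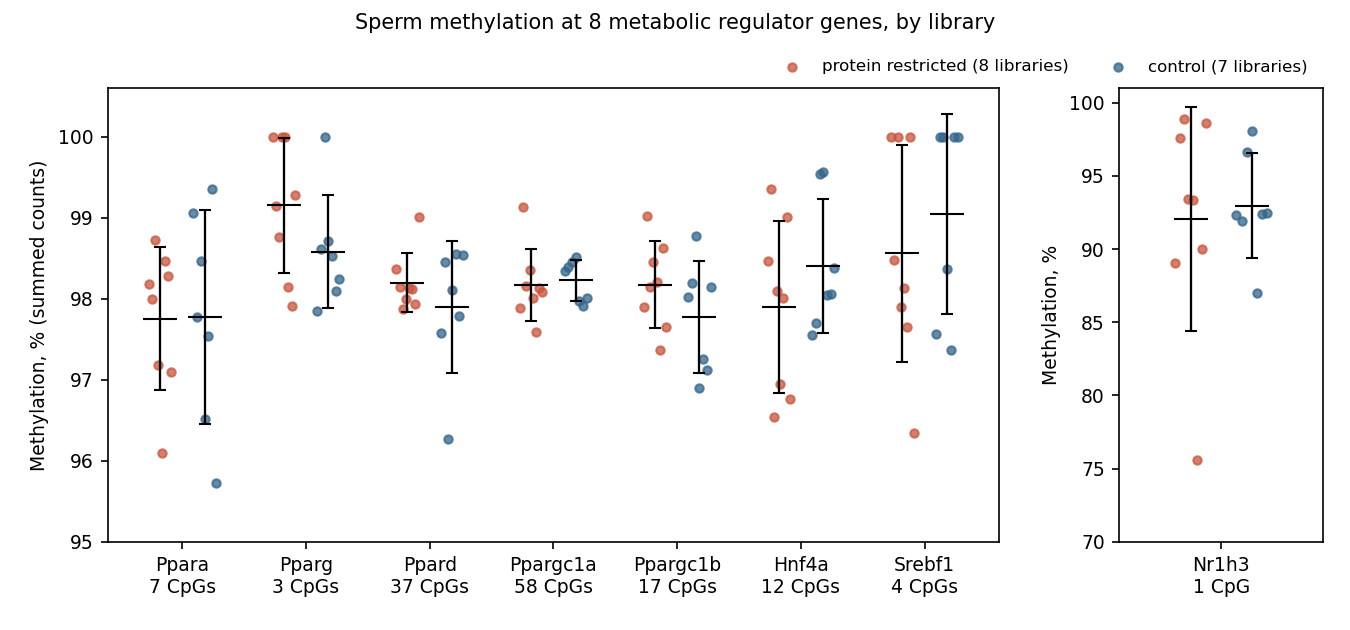
Methylation of each gene in each library, as percent of summed counts; points are libraries, horizontal bars are group means and error bars are SD, with n = 8 protein restricted and n = 7 control. Both panels have axes that do not start at 0, and the Nr1h3 panel has a wider scale. The groups overlap at all 8 genes, and Nr1h3, the only gene with a single CpG, spans 23.3 points.

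Among the PPAR genes, Ppara, the receptor that drives hepatic fatty acid oxidation (gene ID 19013, chromosome 15, 85734910 to 85806851), had 96.1%, 98.1% and 98.7% as lowest, median and highest protein restricted library. The control libraries had 95.7%, 97.8% and 99.4%. The means were 97.8% ± 0.883 in protein restricted libraries (SD, n = 8) and 97.8% ± 1.32 in control libraries (SD, n = 7), with a difference of -0.0233 points (95% interval -1.26 to 1.22), for which the exact permutation test, run on both sides here and below, gave p = 0.967. The library values of the diets overlapped over nearly their whole range. All 7 CpGs lay inside the gene in 2 groups, and the lowest, at 85772280, averaged 95.7% ± 2.97 in protein restricted and 95.04% ± 5.19 in control sperm. The CpG of smallest p with a higher mean, at 85788568, was at 99.5% ± 1.54 in protein restricted and 97.6% ± 4.22 in control sperm, and that with a lower mean, at 85772532, at 98.1% ± 2.18 in protein restricted and 99.4% ± 1.57 in control sperm. Neither had an unadjusted p under 0.05.

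Pparg, the master regulator of adipocyte differentiation (gene ID 19016, chromosome 6, 115360879 to 115490404), was the most methylated of the 8 genes. Its protein restricted libraries had 97.9%, 99.2% and 100% as lowest, median and highest, and its control libraries 97.8%, 98.5% and 100%. The means of 99.2% ± 0.833 in protein restricted libraries (SD, n = 8) and 98.6% ± 0.698 in control libraries (SD, n = 7) differed by 0.578 points (exact permutation p = 0.172, 95% interval -0.300 to 1.44). This rests on 3 CpGs of 1 fragment cluster and 54 to 138 reads per library. Without control replicate 3, the only control library at 100%, the difference was 0.815 points with an exact permutation p of 0.0496. At all 8 genes, this was the only omission of 1 library that gave an exact permutation p under 0.05. At Pparg these p-values ran from 0.0496 to 0.291. A CpG at 115450820 read 100% in all 8 protein restricted libraries and 98.2% ± 2.30 in control, where 3 of 7 libraries were below 100% (unadjusted quasi-binomial p = 0.0220, adjusted p = 1). The other two CpGs were at 98.2% ± 2.16 in protein restricted and 97.96% ± 1.96 in control sperm (115450965, the lowest) and at 99.3% ± 1.33 in protein restricted and 99.5% ± 1.22 in control sperm (115450953).

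Ppard, the broadly expressed receptor of fatty acid oxidation in muscle (gene ID 19015, chromosome 17, 28232754 to 28301469), had 97.9%, 98.1% and 99.0% as lowest, median and highest protein restricted library, against 96.3%, 98.1% and 98.6% in control. The means were 98.2% ± 0.362 in protein restricted libraries (SD, n = 8) and 97.9% ± 0.812 in control libraries (SD, n = 7), a difference of 0.299 points (exact permutation p = 0.415, 95% interval -0.321 to 0.992). Without control replicate 3, the lowest library, it was 0.0277 points (exact permutation p = 0.891). The gene held 23 CpGs with a higher and 14 with a lower mean in protein restricted sperm. Its lowest CpG, at 28256879, was at 94.8% ± 4.61 in protein restricted and 91.5% ± 7.28 in control sperm.

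Single CpGs of Ppard had differences of either sign, and no test compared positions along the gene. The CpG at 28271274 had the smallest p of all 139: it read 100% in each of the 8 protein restricted libraries, while the control libraries had 90.3%, 94.7% and 100% as lowest, median and highest, with 5 of 7 below 100%. The difference was 4.99 points with an unadjusted quasi-binomial p of 0.00227 and an adjusted p of 1. Its dispersion was 0.365, where counting noise gives 1. The 8 protein restricted libraries, all at 100%, added nothing to the observed variance but still counted in the degrees of freedom. The low value therefore cannot be read as a spread below counting noise. With no minimum on the dispersion the adjusted quasi-binomial p of this CpG was 0.0395, which rests on that low value. In the opposite direction, a CpG at 28249355 averaged 97.2% ± 4.42 in protein restricted sperm and read 100% in every control library (unadjusted quasi-binomial p = 0.0268, adjusted p = 1). The 1 kb window from 28249001, with 6 CpGs, was at 97.4% ± 1.67 in protein restricted and 98.8% ± 0.676 in control sperm (SD, n = 8 and n = 7, exact permutation p = 0.0611), and that from 28271001, with 4 CpGs, at 98.8% ± 1.31 in protein restricted and 97.4% ± 1.84 in control sperm (exact permutation p = 0.120).

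Nr1h3, the gene of the oxysterol receptor LXR alpha (gene ID 22259, chromosome 2, 91184061 to 91202829), had the lowest level and the widest spread of the 8 genes, with a single listed CpG where the others are sums. This CpG, at 91193848, had 75.6%, 93.4% and 98.9% as lowest, median and highest protein restricted library, and 87.0%, 92.4% and 98.1% as the control ones. The means were 92.1% ± 7.64 in protein restricted libraries (SD, n = 8) and 92.97% ± 3.58 in control libraries (SD, n = 7), a difference of -0.901 points (exact permutation p = 0.824, 95% interval -7.79 to 5.39). The interval reaches beyond 5 points on either side, so a difference of that size was not excluded at this CpG.

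The spread at the Nr1h3 CpG was larger than counting noise gives if each read is a separate molecule. Its span over the libraries, 23.3 points at 67.1 reads, was close to that of other single CpGs with fewer reads, such as 21.4 points at 25.5 reads at the Ppard CpG 28256879. Its dispersion, the ratio of observed to binomial variance within diets, was 3.33, where counting noise alone gives 1, and 99.6% of all listed CpGs had a lower one. Over the 3946 genes with a single listed CpG, Nr1h3 among them, the median dispersion was 0.957. Neither comparison was matched for depth or level. All listed CpGs had medians of 32.0 reads and 98.2%, against 67.1 reads and 92.5% at the Nr1h3 CpG. Protein restricted replicate 6 had 31 methylated of 41 reads, or 75.6% (95% Wilson interval 60.7% to 86.2%), and protein restricted replicate 3 had 92 of 93 reads, or 98.9% (94.2% to 99.8%). Without protein restricted replicate 6 the dispersion was 1.98 and the difference 1.45 points. The library with the fewest reads at the CpG, 41, was the lowest, while the 3 with the most reads, 84, 93 and 105, read 97.6%, 98.9% and 98.1%. Libraries in between did not follow coverage closely. Control replicate 5 read 87.0% at 54 reads and control replicate 3 read 96.6% at 59. Protein restricted replicate 1 read 89.1% at 64 reads and protein restricted replicate 8 read 98.6% at 71. Control replicate 2 read 91.9% at 74 reads. The part of depth in this spread was not tested.

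**Figure D3:**
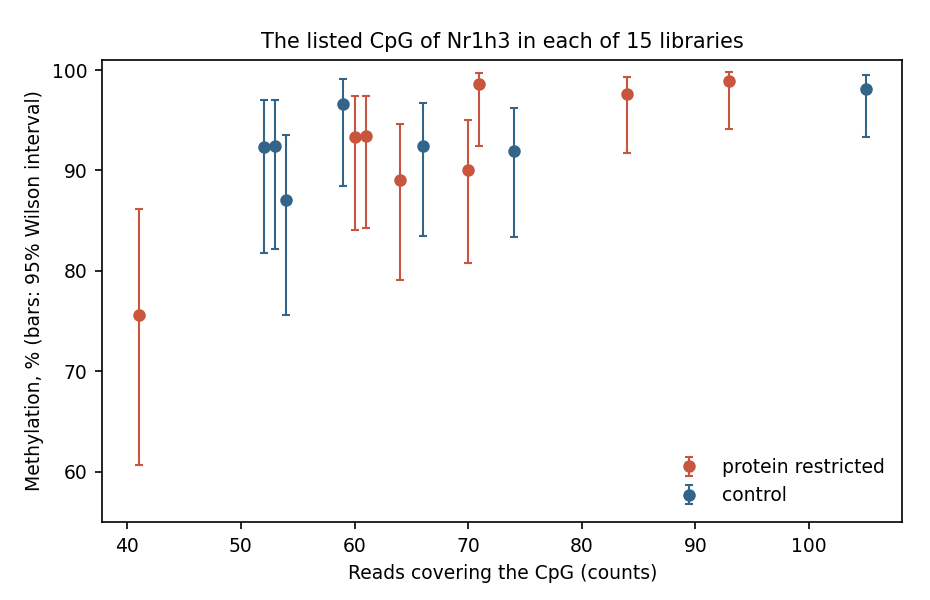
Methylation of the Nr1h3 CpG against the number of reads covering it, for 8 protein restricted and 7 control libraries; bars are 95% Wilson intervals of counting error. Protein restricted replicate 6, with 41 reads, is at 75.6%, and the 3 libraries with at least 84 reads are at 97.6% or above.

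Hnf4a, a receptor of hepatocyte and intestinal gene programmes (gene ID 15378, chromosome 2, 163506811 to 163572907), had 96.5%, 98.1% and 99.4% as lowest, median and highest protein restricted library, against 97.5%, 98.1% and 99.6% in control. The means were 97.9% ± 1.06 in protein restricted libraries (SD, n = 8) and 98.4% ± 0.827 in control libraries (SD, n = 7), a difference of -0.504 points (exact permutation p = 0.326, 95% interval -1.59 to 0.571). A group of 7 CpGs some 3 kb downstream of the first annotated start, also in or within 2 kb of the antisense gene Hnf4aos, held 5 of the 6 CpGs with a lower mean. In it the CpG at 163510083 averaged 93.8% ± 5.84 in protein restricted and 98.7% ± 2.31 in control sperm, with 5 of 8 protein restricted libraries below the control mean (unadjusted quasi-binomial p = 0.0254, adjusted p = 1). The 1 kb window from 163510001, with 6 of these CpGs, was at 96.8% ± 2.52 in protein restricted and 98.5% ± 1.04 in control sperm (exact permutation p = 0.125). The CpG of smallest p with a higher mean, at 163574847 in the flank, was at 99.5% ± 1.31 in protein restricted and 98.3% ± 2.13 in control sperm.

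Among the coactivator genes, Ppargc1a, whose product PGC-1 alpha promotes mitochondrial biogenesis and gluconeogenesis (gene ID 19017, chromosome 5, 51454249 to 52115853), had 1456 to 2767 reads per library over 58 CpGs. Its protein restricted libraries had 97.6%, 98.1% and 99.1% as lowest, median and highest, and its control libraries 97.9%, 98.3% and 98.5%. The means of 98.2% ± 0.448 in protein restricted libraries (SD, n = 8) and 98.2% ± 0.254 in control libraries (SD, n = 7) differed by -0.0585 points (exact permutation p = 0.781, 95% interval -0.437 to 0.361). This was the narrowest interval of the 8 genes. The CpGs were divided into 31 with a higher, 26 with a lower and 1 with an equal mean. At 51902387, the most covered CpG of the gene with a mean of 77.9 reads, all 8 protein restricted libraries were below the control mean, at 97.2% ± 1.85 against 99.2% ± 0.999 in control (unadjusted quasi-binomial p = 0.0341, adjusted p = 1). At 51991154, with the smallest p among CpGs with a higher mean, every protein restricted library read 100%, against 97.8% ± 2.89 in control sperm (unadjusted quasi-binomial p = 0.0230, adjusted p = 1).

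Ppargc1b, whose product PGC-1 beta is a related coactivator (gene ID 170826, chromosome 18, 61291445 to 61400756), had 97.4%, 98.2% and 99.0% as lowest, median and highest protein restricted library, against 96.9%, 98.02% and 98.8% in control. The means were 98.2% ± 0.537 in protein restricted libraries (SD, n = 8) and 97.8% ± 0.688 in control libraries (SD, n = 7), a difference of 0.398 points (exact permutation p = 0.227, 95% interval -0.296 to 1.08). The CpG at 61351116 read 100% in every protein restricted library and 97.7% ± 2.45 in control sperm (unadjusted quasi-binomial p = 0.0113, adjusted p = 1), with 4 of 7 control libraries below 100%. The deepest CpGs, in the flank shared with Pde6a, formed a window of 4 CpGs from 61290001 at 97.9% ± 0.822 in protein restricted and 97.66% ± 1.047 in control sperm (exact permutation p = 0.607). One of these, at 61290063, was the lowest CpG of the gene, at 96.1% ± 3.26 in protein restricted and 97.03% ± 1.52 in control sperm. The CpG of smallest p with a lower mean, at 61349466, was at 98.2% ± 2.63 in protein restricted and 99.3% ± 1.80 in control sperm.

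Srebf1, the SREBP-1 gene (gene ID 20787, chromosome 11, 60199084 to 60224186), had 96.3%, 98.3% and 100% as lowest, median and highest protein restricted library, against 97.4%, 100% and 100% in control. The means were 98.6% ± 1.34 in protein restricted libraries (SD, n = 8) and 99.0% ± 1.23 in control libraries (SD, n = 7), a difference of -0.481 points (exact permutation p = 0.487, 95% interval -1.92 to 0.960). It rests on 4 CpGs and 64 to 132 reads per library. Of these, the CpG at 60203700 was the lowest, at 97.5% ± 3.04 in protein restricted and 96.9% ± 5.39 in control sperm. The CpG of smallest p with a lower mean, at 60203560, was at 98.9% ± 1.98 in protein restricted sperm and read 100% in every control library (unadjusted quasi-binomial p = 0.150).

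Set beside each other, the 7 genes with at least 3 listed CpGs spanned 1.12 points, from 97.8% in Ppara to 98.9% in Pparg, as means over all libraries. From low to high the order ran Ppara, Ppargc1b, Ppard, Hnf4a, Ppargc1a, Srebf1 and Pparg. Spread within a gene over the libraries was 1.54 to 3.66 points, and differences between genes were not tested. Nr1h3, measured at 1 CpG, lay lower, at 92.5%, and 16.1% of all genes with a listed CpG had a lower mean than it. For the other 7 that share was between 49.5% for Ppara and 91.8% for Pparg. Likeness to other genes was measured as the root mean square difference over the 15 libraries, among genes with at least 5 listed CpGs. This distance includes differences in level and counting error, so a small value does not show a shared pattern between libraries. The closest pair of genes was Mpped1 and Ttll5 for Ppargc1a, at 0.284 and 0.301 points, 2900026A02Rik and Chd5 for Ppargc1b, at 0.419 and 0.483, and Gm13974 and Fbn1 for Ppard, at 0.429 and 0.441. For Pparg it was Trmu and Wtip at 0.539 and 0.547 points, for Hnf4a Gm34689 and Mogat1 at 0.663 and 0.685, for Ppara Igf2bp2 and Gm30575 at 0.720 and 0.763, and for Srebf1 Lbp and Msmo1 at 0.761 and 0.829. For Nr1h3 the closest, Ap3d1 and Pik3r4, were 3.99 and 4.18 points away.

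**Figure D4:**
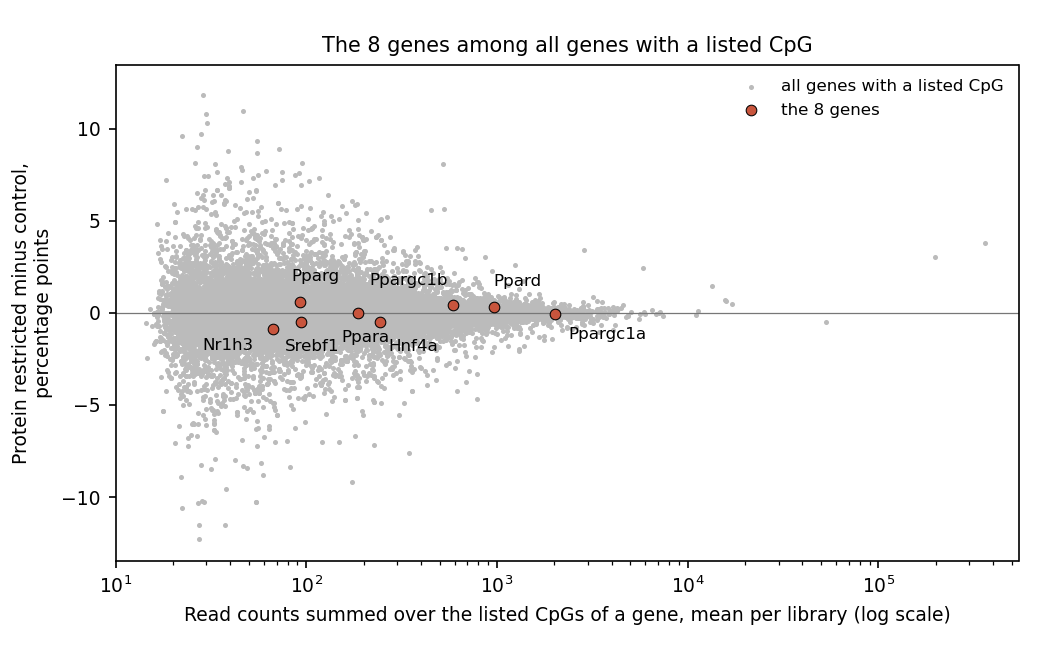
Difference between diets, protein restricted minus control, against the mean read counts per library summed over a gene's listed CpGs (log scale); grey points are the 20804 genes with a listed CpG and red points the 8 genes. The 8 genes lie between -0.901 and 0.578 points, within the cloud of genes of like depth.

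Single CpGs of these genes were tested within the fit of all positions. The quasi-binomial test called 0 of 204492 CpGs (0%) at an adjusted p under 0.05, and none of the 139. At an unadjusted p under 0.05 there were 13 of the 139, or 9.35%, against 3.79% of all CpGs; in protein restricted sperm 8 had a higher and 5 a lower level, against 1.89% and 1.9% of all CpGs in these directions. Of the 13 CpGs, 6 were in Ppard, 4 in Ppargc1a and 1 each in Pparg, Ppargc1b and Hnf4a, and they lay in 12 groups. The count was 8 without protein restricted replicate 3, without control replicate 5 or without control replicate 6. It was 3 at a coverage minimum of 20 reads in every library. That minimum left fewer CpGs to count: 28 in Ppargc1a, 4 in Ppargc1b, 2 in Ppard and 1 in Nr1h3. With limma, 0 CpGs were called on percentages or logit values, and 9320 and 9321 had an unadjusted p under 0.05. No CpG of the 139 had groups that did not overlap, as 26 (0.0127%) and 13 (0.00636%) of all CpGs had in the higher and lower direction.

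Most of the 13 had a diet at the upper limit of the scale. All 8 that were higher read 100% in every protein restricted library, as did 47.3% of the higher ones among all CpGs, and 3 of the 5 that were lower, or 60%, read 100% in every control library, near the 57.3% among all CpGs. Over the 139 CpGs, 11 were at 100% in every protein restricted library and 10 in every control library, or 7.91% and 7.19%, where 3.22% and 4.24% of all CpGs were. At coverages near the median of 27.0 reads, 1 read moves a library by several points, so a CpG at 100% may still hold some unmethylated copies. The largest differences among the 139 were 4.99 points at the Ppard CpG and -4.89 points at the Hnf4a CpG, protein restricted minus control.

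**Figure D5:**
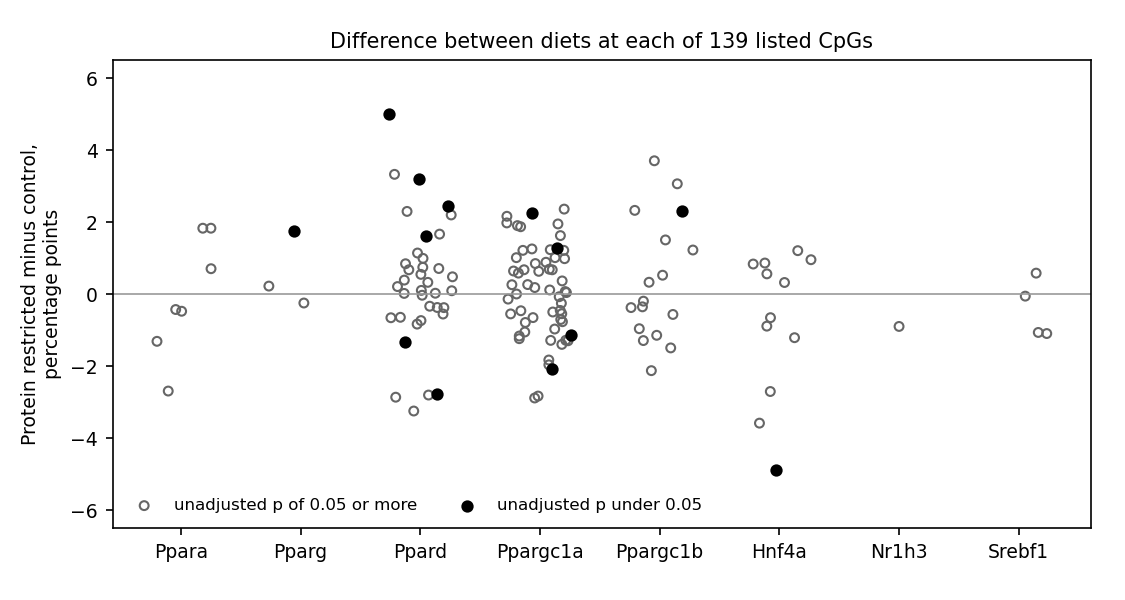
Difference between diets, protein restricted minus control, at each of the 139 CpGs, by gene; filled points have an unadjusted quasi-binomial p under 0.05, open points do not, and horizontal scatter within a gene has no meaning. The 8 filled points above 0 are CpGs at 100% in every protein restricted library, and the highest is the Ppard CpG at 4.99 points.

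Windows of 1 kb sum neighbouring CpGs. At least 3 listed CpGs were held by 22 windows of these genes, with means between 96.9% and 99.2%. Of these, 16 had a higher and 6 a lower mean in protein restricted sperm. The split over all windows was not counted, several of the 22 windows share a gene, and the split was not tested. The quasi-binomial test called 0 of 28743 windows (0%), and 3.33% had an unadjusted p under 0.05, 1.64% higher and 1.69% lower, against 0 of the 22. The diets overlapped in all 22, while 0.0313% and 0.0139% of all windows had groups apart in the higher and lower direction. With limma 0 windows were called on either scale, with 1366 on percentages and 1459 on logit values at an unadjusted p under 0.05. The window with the smallest quasi-binomial p, from 51671001 in Ppargc1a, was at 98.3% ± 1.17 in protein restricted and 99.2% ± 0.786 in control sperm (SD, n = 8 and n = 7, exact permutation p = 0.0951). The Ppard window from 28240001, at 98.7% ± 0.583 in protein restricted and 97.6% ± 1.26 in control sperm, had an exact permutation p of 0.0378 but a quasi-binomial p of 0.295.

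The median dispersion of the 139 CpGs was 0.895 and that of all CpGs 0.955, where counting noise gives 1. These medians cannot be read as a spread close to counting noise. A diet with every library at 100% adds nothing to the dispersion, and the floor of 11 methylated reads bounds low values. Every protein restricted library was at 100% at 7.91% of the 139 and 3.22% of all CpGs. For the control libraries these shares were 7.19% and 4.24%. A dispersion over 2 was seen at 2 of the 139, or 1.44%, and at 2.86% of all CpGs. Besides the Nr1h3 CpG this was a CpG of Ppargc1a at 51908563, with a dispersion of 2.24, which averaged 98.03% ± 2.36 in protein restricted and 99.4% ± 1.51 in control sperm.

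The partners and targets of these regulators were described from 9 lists with 139 genes in all, of which 99 held a listed CpG. None passed the quasi-binomial test over all genes, and 2 of the 99 had an unadjusted p under 0.05, 1 in each direction, no larger a share than the 3.06% of all genes. Both were on the list of HNF4 alpha targets. Serpina1a, which encodes an alpha-1 antitrypsin, was at 94.8% ± 2.23 in protein restricted and 98.5% ± 1.16 in control sperm over 2 CpGs (SD, n = 8 and n = 7, exact permutation p = 0.00311, adjusted quasi-binomial p = 1). It belongs to a family of near-identical copies, and the placement of its reads was not tested. Apoa4, an apolipoprotein gene, was at 98.4% ± 0.587 in protein restricted and 97.6% ± 0.951 in control sperm over 12 CpGs (exact permutation p = 0.0592).

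All 3 RXR genes, partners of the PPARs and LXR alpha, were listed, with a median level of 92.4%. The level of Rxrb was the lowest, at 89.4% ± 1.42 in protein restricted and 91.4% ± 2.17 in control sperm over 5 CpGs (exact permutation p = 0.0441, unadjusted quasi-binomial p = 0.106, adjusted p = 1). Rxrg, the RXR gene with a higher mean, was at 92.5% ± 1.72 in protein restricted and 92.2% ± 2.15 in control sperm. Coactivators and corepressors were listed at 12 of 16 genes, 6 higher and 6 lower, with the Mediator subunit gene Med1 at 87.0% ± 4.07 in protein restricted and 89.9% ± 3.15 in control sperm. The corepressor complex gene Tbl1x was at 97.3% ± 2.004 in protein restricted and 95.6% ± 3.05 in control sperm. Other metabolic receptors and regulators were listed at 18 of 28 genes, 8 higher and 10 lower. The homeobox gene Prox1 was at 92.4% ± 1.54 in protein restricted and 90.02% ± 3.64 in control sperm, and the thyroid hormone receptor gene Thrb at 97.9% ± 0.325 in protein restricted and 98.4% ± 0.441 in control sperm. Among these Hnf4g, the paralog of Hnf4a, was at 86.9% ± 2.98 in protein restricted and 87.4% ± 3.80 in control sperm.

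SREBP processing and lipogenic genes were listed at 18 of 22 genes, 9 higher and 9 lower, with the fatty acid elongase gene Elovl6 at 97.3% ± 0.611 in protein restricted and 96.8% ± 0.610 in control sperm over 67 CpGs. Scap, whose product escorts SREBPs to the Golgi, was at 97.6% ± 2.68 in protein restricted and 99.4% ± 0.992 in control sperm. PPAR alpha and delta targets were listed at 11 of 20 genes, 4 higher and 7 lower, and PPAR gamma targets at 9 of 12, 5 higher and 4 lower. Fabp1, a fatty acid binding protein gene, was at 97.4% ± 3.09 in protein restricted and 95.3% ± 3.50 in control sperm, and Pdk4, a pyruvate dehydrogenase kinase gene, at 96.96% ± 2.31 in protein restricted and 97.9% ± 2.41 in control sperm. The lipid droplet gene Cidec was at 97.7% ± 1.64 in protein restricted and 95.7% ± 1.72 in control sperm (exact permutation p = 0.0404, unadjusted quasi-binomial p = 0.176, adjusted p = 1), and Ucp1, the uncoupling protein gene, at 98.2% ± 2.11 in protein restricted and 98.6% ± 1.83 in control sperm. Lipe, which encodes hormone-sensitive lipase, was the least methylated of the PPAR gamma targets, at 80.7% ± 4.38 in protein restricted and 80.0% ± 4.25 in control sperm. LXR targets were listed at 8 of 9 genes, all 8 with a higher mean and a median difference of 0.347 points, where 10317 of all genes had a higher and 10471 a lower mean; none of the 8 passed or had an unadjusted p under 0.05. Lpcat3, a phospholipid remodelling gene, had the smallest p of these, at 99.5% ± 0.727 in protein restricted and 98.9% ± 0.923 in control sperm. Apoe, the apolipoprotein E gene, was the lowest gene of all 9 lists, at 74.1% ± 4.19 in protein restricted and 74.0% ± 3.39 in control sperm over 7 CpGs. PGC-1 partners and mitochondrial targets were listed at 13 of 15 genes, 8 higher and 5 lower, and HNF4 alpha targets at 7 of 14, 2 higher and 5 lower. Of the PGC-1 list, Tfb2m, a mitochondrial transcription factor gene, was at 99.4% ± 1.15 in protein restricted and 97.7% ± 3.24 in control sperm, and Gabpa, a nuclear respiratory factor gene, at 97.7% ± 2.12 in protein restricted and 98.8% ± 1.49 in control sperm. Over all 99 genes the median difference was 0.0203 points, with 51 higher and 48 lower.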

How the data were processed

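Percent methylation was computed from the deposited files, which hold at each CpG the methylated count and the total count, raw and not normalized, per the file headers. The submitters' processing notes list Bismark 0.7.12, Bowtie2 2.1.0 and mm10 without roles; for trimming, filters and strand merging nothing is given in the sources used here. Libraries were grouped by the diet label, and replicate numbers follow accession order and pair nothing. Positions needed 10 reads in every library, which removed 0.

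Counts per CpG, per 1000 bp window with at least 3 CpGs, and per gene span with 2 kb flanks were tested with a quasi-binomial logistic model (F test, 13 residual degrees of freedom, dispersion kept from falling under 1), with p-values adjusted by Benjamini-Hochberg over the whole table at 0.05. For gene and window levels, diets were permuted exactly over all 6435 splits (two-sided, smallest possible p 0.000155); p-values for single genes are unadjusted. Intervals invert that test at the 95% level, and Wilson intervals cover counting error only. They and the dispersion treat each read as a separate molecule. Reads carried no molecular identifiers, so this could not be checked. limma 3.58.1, R 4.3.3, Python 3.11.15, numpy 2.4.6 and scipy 1.17.1 were used, and the tests were tested on simulated data.

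Gene spans and promoters came from RefSeq GRCm38.p6. Of 693 listed positions inside promoter windows, 691 were the C of a CpG on the + strand. All 8 genes are named, with the lowest CpG of each, the CpG of smallest p in each direction, the 2 closest genes among those with at least 5 CpGs, and the genes of smallest p in each direction per list. The genes, lists and tests were chosen with earlier results of these data known. Other CpGs, the 1 kb windows and the list genes named for a low level were chosen after their values were seen.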

Additional observations from a re-analysis of the deposited data

Results flagged for a closer look

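Of 56 groups of libraries examined for a value far from the rest of its diet by Dixon's test, 11 held one, and chance gives about 1 in 20. Per gene, protein restricted replicate 6 was at 75.6% at Nr1h3, with the other protein restricted libraries between 89.1% and 98.9%. Ppard had protein restricted replicate 8 at 99.0%, above the others, and control replicate 3 at 96.3%, below the others. Control replicate 3 was also the only control library at 100% at Pparg.

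Single CpGs stood out in 6 cases. At the Ppargc1a CpG at 51902387, protein restricted replicate 1 was at 92.98%, with the other protein restricted libraries between 96.8% and 99.1%. In the other 5 cases every other library of the diet was at 100%, so that any lower value is picked out. These were protein restricted replicate 8 at 95.7% at the Ppara CpG 85788568 and protein restricted replicate 1 at 96.3% at the Hnf4a CpG 163574847. The others were control replicate 3 at 95.8% at the Ppara CpG 85772532, control replicate 1 at 96.8% at the Pparg CpG 115450953, and control replicate 6 at 95.2% at the Ppargc1b CpG 61349466. In depth, control replicate 4 stood apart with 11841657 summed read counts, with the other control libraries between 7846118 and 9333437. The cause of each was not tested.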

How the results depend on the processing

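With the dispersion as estimated and no minimum, 200 CpGs, 2 windows and 1 gene were called. With the minimum of 1, there were 0 of each. Without the minimum, the Ppard CpG at 28271274 had an adjusted quasi-binomial p of 0.0395. That p rests on a dispersion to which its protein restricted libraries, all fully methylated, added nothing. With 10 kb flanks the difference changed sign at Ppara (0.00732 points), Ppard (-0.115), Hnf4a (0.104) and Nr1h3 (0.295). The unweighted mean of CpGs turned Ppargc1a to 0.0648. Merging runs of consecutive title numbers into 4 protein restricted and 3 control units turned Ppara to 0.383, Srebf1 to 0.148 and the Ppargc1a CpG at 51924509 to -0.932.

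With 1 library left out, the differences ran from -0.364 to 0.239 points at Ppara, 0.456 to 0.815 at Pparg, -0.196 to 0.0236 at Ppargc1a and -1.89 to 1.45 at Nr1h3; Ppargc1a and Nr1h3 changed sign without protein restricted replicate 6. Ranges were 0.0277 to 0.408 at Ppard, 0.252 to 0.566 at Ppargc1b, -0.713 to -0.309 at Hnf4a and -0.760 to -0.164 at Srebf1. CpGs that changed sign ran from -0.971 to 1.53 (Ppara 85772280), -0.165 to 0.753 (Pparg 115450965), -0.711 to 0.0945 (Pparg 115450953), -0.0554 to 2.13 (Ppargc1a 51924509) and -1.09 to 1.42 (Srebf1 60203700). The count of CpGs with an unadjusted p under 0.05, 13 of 139, was 8 to 14 with 1 library left out and 5 with merged runs. It was 3 at a coverage minimum of 20 reads, where Ppara, Pparg, Hnf4a and Srebf1 had no CpG left. Ppargc1a kept 28 CpGs at that minimum, Ppargc1b 4, Ppard 2 and Nr1h3 1. No paired analysis was possible because the labels give no replicate numbers that tie libraries across diets. The cause of these changes was not tested.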
